A study of Mus musculus with 2 samples.

Results

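Transcripts of 44 genes that encode subunits, assembly factors and regulators of the proteasome were measured, of 21896 genes in all, in the ventricular and subventricular zones (VZ–SVZ) dissected from mouse cortex at E13.5. A gene was a member if its symbol was Psma, Psmb, Psmc, Psmd or Psme followed by a number, or was Psmf1. Choosing by symbol brings in 3 assembly chaperones of the 19S particle and leaves out partners named otherwise, such as Pomp and Adrm1, which are described separately. The Rcor2fl/fl library, the control, came from embryos with floxed alleles of Rcor2, which encodes a corepressor of the CoREST family. The Rcor2cko library came from embryos in which Nestin-driven Cre recombinase, active in neural progenitors and their progeny, acts on the same floxed alleles. Both libraries came from matings of Rcor2fl/+NesCre mice of the C57/BL6 strain, and the number of embryos behind each library was not stated. Cells outside the neural lineage, such as microglia and endothelium, remain in such a dissection and are not targeted by this Cre. There was 1 library of each genotype, so no difference has a replicate check, no p-value is given, and a difference between the libraries may not be one between the genotypes.

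The proteasome degrades proteins that carry ubiquitin chains. Its 20S core is a barrel of α and β rings, in which the β1, β2 and β5 subunits (Psmb6, Psmb7 and Psmb5) hold the proteolytic sites. The 19S regulatory particle caps the barrel: an ATPase ring and its partners form the base, which unfolds substrates, and the lid removes ubiquitin. In immune cells and under interferon, Psmb9, Psmb10 and Psmb8 take the places of the 3 constitutive catalytic subunits and form the immunoproteasome. In dividing progenitors the proteasome clears cyclins and other regulators of the cell cycle.

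Levels are in FPKM, which scale fragments by transcript length and library size, so that levels of different genes can be set side by side per length. Changes are log2 ratios of (FPKM + 0.1), Rcor2cko over Rcor2fl/fl, for the genes tested, which are those that reached 1 FPKM in either library. The files hold no counts, but FPKM steps gave back whole fragments, with scaling totals of 18841993 in Rcor2fl/fl and 25480055 in Rcor2cko. The 41 members with 1 transcript held 53458 and 68897 fragments, which is 0.284% and 0.270% of these totals. Beside most changes stands either the interval from the deposited 95% FPKM bounds of both libraries or the 95% exact (Clopper-Pearson) interval of the fragment ratio. Both leave out variation between embryos. The fragment interval was the narrower one for members that passed, and the wider one for Psmb8 and Psmb9. Genes outside the members have at most the deposited interval. Rcor2, the targeted gene, measured 90.6 FPKM in Rcor2fl/fl and 55.7 FPKM in Rcor2cko over its whole transcript, floxed exons included with the rest. The paper reported that RNA signal over the floxed exons was absent in Rcor2cko cortex at E13.5. A value over the whole transcript cannot show this. Of the radial glial markers, all 8 were at 8.57 FPKM (Hes1) or more in both libraries, and the 4 markers of intermediate progenitors at 21.1 FPKM (Btg2) or more, so the defining genes of the labelled tissue were present. Radial glial markers differed in both directions, from -0.53 for Hes1 and -0.30 for Nes to 0.53 for Fabp7. The 5 markers of postmitotic neurons summed to 1364 and 1324 FPKM, against 873 and 1021 FPKM for the radial glial markers, so neurons were in the dissected tissue as well. Choroid plexus markers differed between the libraries, with Ttr listed at 0 in Rcor2fl/fl and at 57.8 FPKM in Rcor2cko. Markers of microglia and leukocytes were higher in Rcor2cko for 8 of the 9 that passed, with a summed level over the 10 listed genes of 22.8 FPKM against 33.3 FPKM, and all 7 endothelial markers were higher too, with a median change of 0.16. The part of these differences in the values of proteasome genes was not tested. Xist, an RNA that coats the inactive X, measured 177 FPKM in Rcor2fl/fl and 0.109 FPKM in Rcor2cko, a difference of the kind seen between female and male tissue, and the sex of the embryos and their genotype cannot be told apart in any change given here.

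Most proteasome genes were abundant, and their levels were close in the 2 libraries. Of the 44 members, 40 reached 1 FPKM in at least 1 library, all 40 of them in both, with a median level of 66.0 FPKM in Rcor2fl/fl and 63.1 FPKM in Rcor2cko. The median of all 11777 genes tested was 10.5 and 10.4 FPKM. Members lay on 16 chromosomes, with 8 of them on chromosome 11. The 4 that stayed under 1 FPKM were 2 of the 3 immunoproteasome subunits, Psmb8 and Psmb9, and the tissue-restricted variants Psma8, known from testis, and Psmb11, known from thymus. The plot of levels by role shows core and 19S subunits at the top, activators and chaperones under them, and the immunoproteasome and tissue variants at the bottom.

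**Figure D1:**
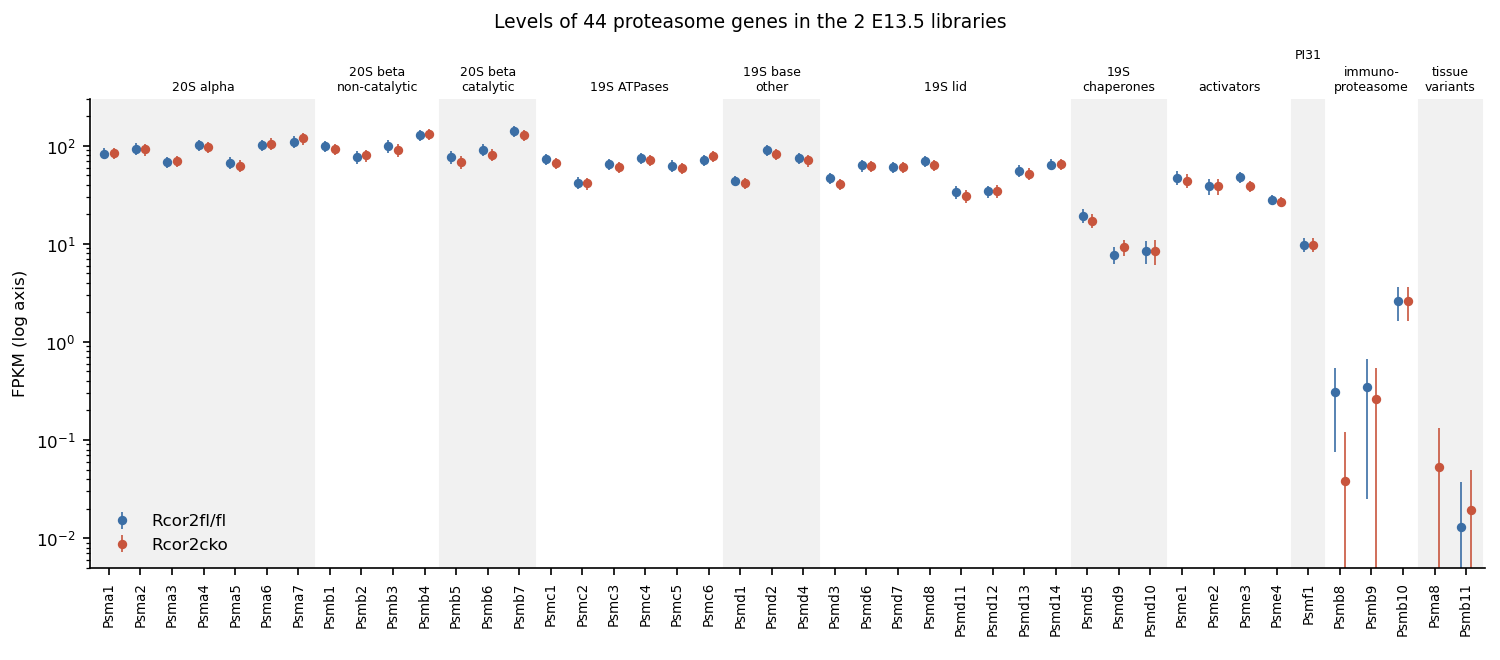
FPKM on a log axis for each of the 44 proteasome genes, grouped by role, in Rcor2fl/fl (blue) and the Rcor2cko library (red). Points are the deposited values and bars the deposited 95% bounds, clipped at the lower edge of the axis; Psma8 is listed at 0 in Rcor2fl/fl and has no blue point. The 14 core subunits lie between 62.7 and 141 FPKM, and Psmb8 and Psmb9 below 0.35 FPKM.

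The 14 constitutive subunits of the 20S core are built into the barrel in equal numbers, and their transcripts lay within a narrow band. In the Rcor2fl/fl library they ranged from 67.1 to 141 FPKM, a 2.10-fold span, with a coefficient of variation of 22.2%. In the Rcor2cko library the range was 62.7 to 132 FPKM, again a 2.10-fold span, with a coefficient of variation of 23.4%. Median levels were 96.4 and 90.9 FPKM. Each core gene was above at least 93.6% of all genes tested in mean level. Psmb7, the β2 catalytic subunit, was the most abundant by mean level, at 141 FPKM in Rcor2fl/fl and 130 FPKM in Rcor2cko. Psmb4, a non-catalytic β subunit, followed at 128 and 132 FPKM, and Psma7, of the α ring, at 110 and 119 FPKM. At the lower end stood Psma5 at 67.1 and 62.7 FPKM, Psma3 at 68.4 and 69.9 FPKM, and Psmb5 at 77.2 and 68.6 FPKM. The deposited bounds of Psmb7 and Psmb4 overlapped within each library, and so did those of Psma5 and Psma3, so neither pair can be ordered.

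The 17 subunits of the 19S particle lay in a lower band, with a median of 63.0 FPKM in Rcor2fl/fl and 61.1 FPKM in Rcor2cko. They ran from 33.9 to 90.0 FPKM in one and from 30.8 to 82.5 FPKM in the other, with coefficients of variation of 25.9% and 26.4%. Psmd2, a large scaffold of the base, was the highest by mean level at 90.0 and 82.5 FPKM. The ATPases Psmc6, at 71.7 and 78.7 FPKM, and Psmc4, at 75.3 and 71.7 FPKM, came next. The lowest by mean level were the lid subunits Psmd11, at 33.9 and 30.8 FPKM, and Psmd12, at 34.3 and 34.7 FPKM, and the ATPase Psmc2, at 42.2 and 41.4 FPKM. The core and 19S bands overlapped in both libraries. Median transcript length was 983 nt for the core genes and 1564 nt for the 19S genes.

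Between the libraries, none of the 40 members that passed differed by 1.5-fold, where 5.54% of all genes tested did. Changes lay between -0.30 (Psme3) and 0.24 (Psmd9), with a median of -0.07, against -0.03 for all genes tested. Of the 40, 27 were lower and 13 higher in Rcor2cko, a share lower of 67.5% where 57.6% of all genes tested were lower. Members were mostly high, and among genes of at least 20 FPKM in both libraries 25 of 35 members (71.4%) were lower beside 62.7% of such genes. Most had short transcripts too, and among genes of at most 2000 nt 20 of 32 members (62.5%) were lower beside 56.7%. These shares moved with the scaling: with upper quartiles set equal, 22 of the 40 members were lower, where 47.7% of all genes tested were. The deposited interval of the change left out 0 for 1 of the 40 members, Psme3, and for 7.82% of all genes tested, a share also not matched by level. Among members of at least 20 FPKM with recovered fragments, the fragment interval lay below 0 for 13 of 33 and above 0 for 2 of 33, where 33.3% and 12.4% of comparable genes did so. The plot of change against level places all 40 members inside the 1.5-fold lines.

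**Figure D2:**
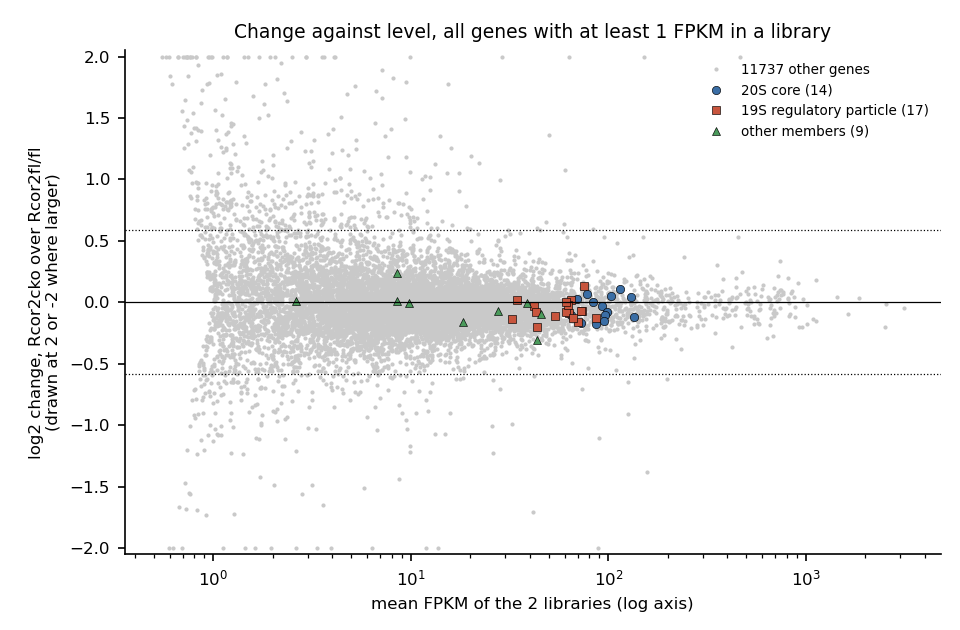
Log2 change of (FPKM + 0.1), Rcor2cko over Rcor2fl/fl, against the mean FPKM of the 2 libraries on a log axis, for the 11777 genes tested. Grey points are other genes, circles 20S core, squares 19S particle and triangles the other members; dotted lines mark 1.5-fold. The members cluster between -0.30 and 0.24, most of them at mean levels where the spread of all genes is narrow.

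Among all genes of at least 20 FPKM in both libraries, 62.7% were lower in Rcor2cko. Within the 20S core 8 of 14 genes (57.1%) were lower, with a median change of -0.05. This median was -0.01 with upper quartiles set equal, and 0.03 over the 8 core genes that have no near-identical genomic copy, of which 3 were lower. The 7 genes of the α ring, which gates entry to the barrel, were split into 3 lower and 4 higher. Their summed level was 626 FPKM in Rcor2fl/fl and 628 FPKM in Rcor2cko, a difference of 0.40%. Psma7 had the highest change of the core at 0.11 (fragment interval 0.01 to 0.21), from 1425 and 2057 fragments. In the α ring Psma6 followed at 0.05 (-0.04 to 0.15), from 102 to 105 FPKM. The other α genes lay between -0.10 (Psma5) and 0.03 (Psma3), each with a fragment interval that held 0. Among the 4 non-catalytic β genes 2 were lower and 2 higher. Psmb3 was at 99.8 and 90.0 FPKM, a change of -0.15 (fragment interval -0.27 to -0.03), and Psmb1 at 99.2 and 92.4 FPKM, a change of -0.10. Psmb2 was at 76.3 and 79.9 FPKM, a change of 0.07 (-0.06 to 0.19), and Psmb4 had a change of 0.05.

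All 3 constitutive catalytic genes were lower in Rcor2cko, with overlapping fragment intervals. In mm9 they lie at chr11:70338859-70341360 (Psmb6, plus strand), chr14:55232957-55236832 (Psmb5, minus strand) and chr2:38443566-38499426 (Psmb7, minus strand). Psmb6, the β1 subunit with caspase-like activity, was at 91.3 FPKM in Rcor2fl/fl and 81.0 FPKM in Rcor2cko, a change of -0.17 (fragment interval -0.28 to -0.07). Psmb5, the β5 subunit with chymotrypsin-like activity, was at 77.2 and 68.6 FPKM, a change of -0.17 (-0.29 to -0.05). For Psmb7, the β2 subunit with trypsin-like activity, the change was -0.12 (-0.20 to -0.03). The sum of the 3 was 309 FPKM in Rcor2fl/fl and 279 FPKM in Rcor2cko, a difference of -9.76%. The fragment intervals of all 3 lay below 0, while the wider deposited intervals of all 3 held 0. Of comparable genes, 33.3% had a fragment interval below 0. Psmb5 is among the members with a near-identical copy elsewhere in the genome, at 98.9% identity, and reads shared with it could move its value. Among all genes of at least 20 FPKM in both libraries, the middle 90% of changes ran from -0.24 to 0.18, a range that holds all 3.

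**Figure D3:**
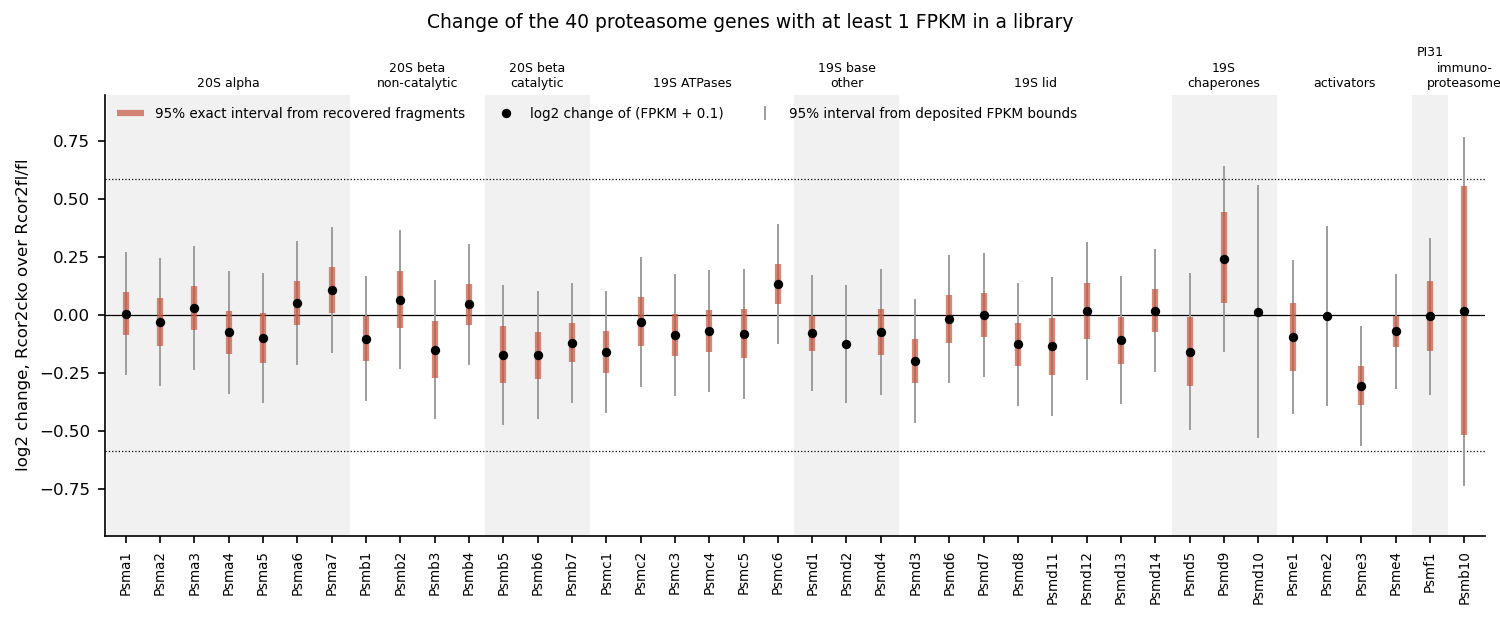
Log2 change of (FPKM + 0.1), Rcor2cko over Rcor2fl/fl, for the 40 members of at least 1 FPKM in a library, grouped by role. Thin grey bars are intervals from the deposited 95% FPKM bounds, thick red bars 95% exact intervals from recovered fragments for the members with 1 transcript, and dotted lines mark 1.5-fold. Psme3 is the member whose grey bar leaves out 0, and the 3 catalytic β genes lie below 0 beside an α ring spread over both sides.

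The promoters of Psmb6 and Psmb5 are shown because they hold the same motif. Each run holds the 250 bases before the RefSeq transcription start, 5′ to 3′ in the direction of transcription, with positions in mm9. Capitals mark TGACNNNGC, the core of the antioxidant response element bound by NFE2L1 and NFE2L2. A Psmb7 promoter was not in the reference table. The motif was about as frequent in members as in other genes, held by 6 of 37 members (16.2%) beside 17.0% of tested genes. A link between the motif and the changes was not tested.
Psmb6, chr11:70338609-70338858, plus strand: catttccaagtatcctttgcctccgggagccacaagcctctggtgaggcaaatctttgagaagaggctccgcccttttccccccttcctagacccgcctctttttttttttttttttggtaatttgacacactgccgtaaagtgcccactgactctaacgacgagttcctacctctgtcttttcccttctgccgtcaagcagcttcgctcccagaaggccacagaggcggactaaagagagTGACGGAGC
Psmb5, chr14:55236833-55237082, minus strand: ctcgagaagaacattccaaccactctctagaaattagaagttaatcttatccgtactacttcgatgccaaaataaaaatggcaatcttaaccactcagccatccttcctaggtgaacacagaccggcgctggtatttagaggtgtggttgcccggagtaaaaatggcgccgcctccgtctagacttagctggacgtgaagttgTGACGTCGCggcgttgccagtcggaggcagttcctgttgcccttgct
Counted from the start site, the marked matches begin at position -9 in Psmb6 and -47 in Psmb5.

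Transcripts of the immunoproteasome were scarce in both libraries. Psmb9 (chr17:34319044-34324275, minus strand) and Psmb8 (chr17:34335140-34338399, plus strand) lie 10.9 kb apart in the MHC region of mm9, with Tap1 between them, and Psmb10 lies at chr8:108459628-108462292 on the minus strand. Psmb8 was at 0.309 FPKM in Rcor2fl/fl (6 fragments) and 0.0384 FPKM in Rcor2cko (1 fragment), a log2 fragment ratio of -3.01 whose counting interval ran from -8.53 to 0.03. On the scale of (FPKM + 0.1) its change was -1.56, and the deposited interval, -2.76 to -0.37, left out 0. Psmb9 was at 0.347 and 0.259 FPKM, each from 4 fragments, with a fragment ratio of -0.42 (-2.84 to 2.01). Psmb10 was the one of the 3 above 1 FPKM, at 2.61 and 2.64 FPKM from 53 and 72 fragments, a change of 0.02 (fragment interval -0.52 to 0.56). For all 3 the fragment interval held 0, so that by fragments no difference between the libraries was detectable at this depth.

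Set against the constitutive subunit of the same site, Psmb10 reached 1.86% of the Psmb7 level in Rcor2fl/fl (95% exact interval 1.39% to 2.44%) and 2.04% in Rcor2cko (1.59% to 2.58%). Psmb9 stood at 0.380% of Psmb6 (0.103% to 0.975%) and 0.320% (0.0872% to 0.822%). Psmb8 stood at 0.401% of Psmb5 (0.147% to 0.875%) and 0.0560% (0.00142% to 0.313%). The interval for Psmb10 lay above those of the other two in each library, whereas the intervals for Psmb8 and Psmb9 overlapped. Summed over the 3 sites, the immunoproteasome level was 1.06% of the constitutive level in Rcor2fl/fl and 1.05% in Rcor2cko. Psmb10 made up most of the immunoproteasome sum, at 2.61 of 3.27 FPKM in Rcor2fl/fl and 2.64 of 2.94 FPKM in Rcor2cko. The share of this signal that comes from microglia, whose markers were higher in Rcor2cko, was not tested. In bulk tissue, fewer cells of a type and less RNA per cell cannot be told apart.

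**Figure D4:**
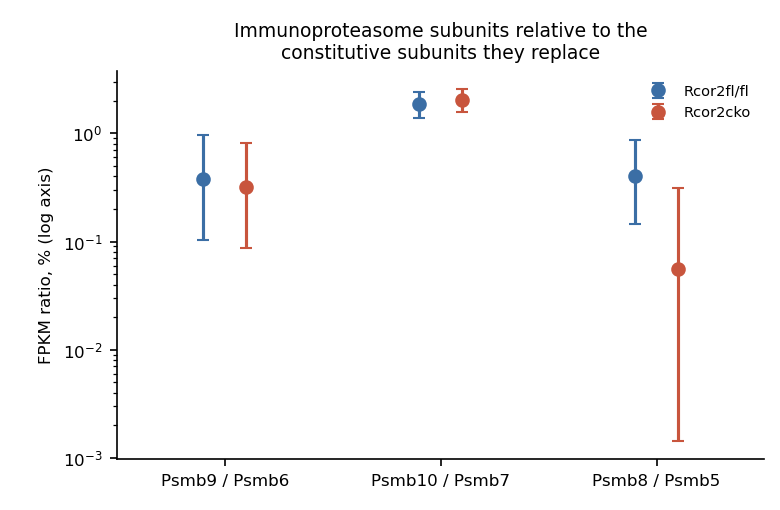
FPKM of each immunoproteasome subunit as a percentage of the constitutive subunit it replaces, on a log axis, in Rcor2fl/fl (blue) and the Rcor2cko library (red). Bars are 95% exact intervals from recovered fragments and cover counting error only. Psmb10 is near 2% of Psmb7 in both libraries, and the bars of the 2 libraries overlap for each pair.

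Of 12 other genes of antigen processing and the interferon response, 6 reached 1 FPKM in a library, of which 2 were higher, 4 lower and none past 1.5-fold in Rcor2cko. Among all genes tested 57.6% were lower and 5.54% past 1.5-fold. Tap1, which carries peptides into the endoplasmic reticulum, was at 0.338 and 0.271 FPKM, and Ifit1, an interferon-induced gene, was listed at 0 in both. B2m, the light chain of MHC class I, was at 10.1 FPKM (126 fragments) and 14.8 FPKM (248 fragments), a change of 0.55 with a deposited interval from -0.02 to 1.12. No fragment interval is given for B2m, so its interval cannot be set beside the fragment intervals of members.

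The tissue-restricted members were at the limit of detection. Psmb11, the β5 variant of thymic epithelium, gave 1 fragment in Rcor2fl/fl and 2 in Rcor2cko, and lies 7.31 kb from Psmb5 on chromosome 14. Psma8, the α variant of male germ cells, gave 0 and 2 fragments. A floor of 3 fragments corresponds to 0.106 FPKM in Rcor2fl/fl and 0.0789 FPKM in Rcor2cko for the length of Psma8, and no ratio is given for either gene.

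In the 19S particle, 13 of 17 genes were lower in Rcor2cko, where 62.7% of all genes of at least 20 FPKM were, with a median change of -0.08. With upper quartiles set equal, 11 of the 17 were lower and the median was -0.03. Of the 6 ATPases, which form the unfolding ring, 5 were lower and Psmc6 was higher. Psmc6 was at 71.7 FPKM and 1851 fragments in Rcor2fl/fl and at 78.7 FPKM and 2733 fragments in Rcor2cko, a change of 0.13 (fragment interval 0.05 to 0.22). Psmc1 was at 73.7 and 66.0 FPKM, a change of -0.16 (-0.25 to -0.07). The remaining ATPases, Psmc2 to Psmc5, lay between -0.09 and -0.03, each with a fragment interval that held 0. All 3 other base subunits, the scaffolds Psmd1 and Psmd2 and the ubiquitin receptor Psmd4, were lower, with changes of -0.08, -0.13 and -0.07. Of the 8 lid subunits 5 were lower. Psmd3 was the lowest of the particle, at 46.8 FPKM and 1721 fragments in Rcor2fl/fl and 40.8 FPKM and 2021 fragments in Rcor2cko, a change of -0.20 (fragment interval -0.29 to -0.10). Psmd11 was at -0.14 (-0.26 to -0.01). Psmd14, the deubiquitinase of the lid, was at 64.4 and 65.2 FPKM, a change of 0.02 (-0.08 to 0.11), and Psmd12 also at 0.02. The deposited intervals of all 17 genes held 0. The median of the core minus that of the 19S particle was 0.03 on the log2 scale, or 0.10 without members that have a genomic copy, and with 1 library per genotype this difference could not be tested.

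Promoters of the members were searched for 5 motifs, and no test was made of how they were spread over the particles. RefSeq promoters, which hold 250 bases before and 50 after the start, were found for 37 of the 44 members. CCGGAAG, a core bound by ETS-family factors, was searched on both strands and held by 9 of 14 promoter-matched 19S genes, by 1 of 11 core genes (Psma6) and by 0 of 3 immunoproteasome genes. Over all members it was held by 12 of 37 (32.4%), beside 20.4% of 8374 tested genes with a promoter and 9.93% of all 27025 genes in the table. The 60 bases before the start are shown for 3 of the 9, an ATPase, a base scaffold and a lid subunit; capitals mark the motif, read as CTTCCGG where it lies on the other strand. The RefSeq start of Psmc1 lies upstream of its locus in the deposited files.
Psmc1, chr12:101348352-101348411, plus strand: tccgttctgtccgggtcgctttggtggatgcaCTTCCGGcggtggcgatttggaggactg
Psmd2, chr16:20651665-20651724, plus strand: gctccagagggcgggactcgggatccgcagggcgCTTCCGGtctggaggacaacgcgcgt
Psmd11, chr11:80242057-80242116, plus strand: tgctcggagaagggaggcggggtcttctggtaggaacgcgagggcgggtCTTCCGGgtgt
These 3 genes included the 19S subunits with the highest and the lowest mean level, Psmd2 and Psmd11. TGACNNNGC was held by 6 of 37 members (16.2%), among them Psmb6 and Psmb5 above, beside 17.0% of tested genes. ATTGG, the CCAAT box on its other strand, was found in 14 members (37.8%, beside 44.0% of tested genes), TATAAA in 4 (10.8%, beside 8.07%), of them 2 of 14 19S genes and 1 of 11 core genes, and the palindrome bound by the respiratory factor NRF1 in Psma2 alone of the 37 (2.70%, beside 2.52%). All motifs were searched on both strands, no motif contains another, and a match says only that the letters are present.

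**Figure D5:**
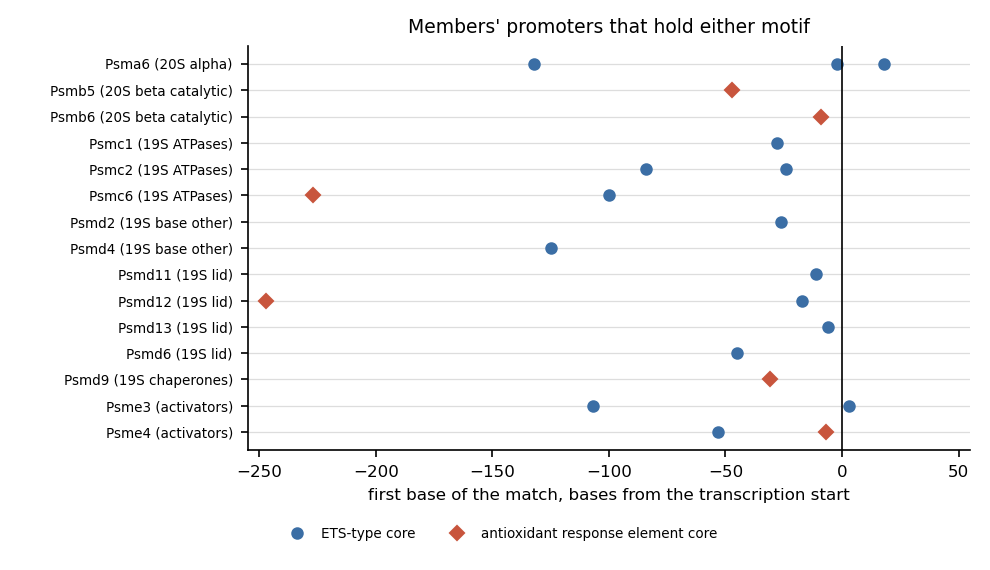
Position of the ETS-type core (circles) and the antioxidant response element core (diamonds) in the promoters of the members that hold either, in bases from the RefSeq transcription start at 0, with all listed starts of a gene on its line. Most circles belong to 19S genes, and the diamonds of Psmb6 and Psmb5 stand at -9 and -47.

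The 3 chaperones that help to assemble the 19S base were far below the subunits they handle. Psmd5 was at 19.3 FPKM in Rcor2fl/fl and 17.3 FPKM in Rcor2cko, a change of -0.16 (fragment interval -0.31 to -0.01). Psmd9 was at 7.77 FPKM (351 fragments) and 9.21 FPKM (561 fragments), a change of 0.24 (0.05 to 0.44), the highest of the 40 members that passed. Psmd10, also called gankyrin, was at 8.44 and 8.53 FPKM, a change of 0.01. It is the only member on the X chromosome. The deposited interval of the Psmd10 change ran from -0.53 to 0.56. With the highest transcript row in place of the sum the change was 0.21. That row is 7.33 FPKM of Rcor2fl/fl alone, set against the whole gene in Rcor2cko, so a part is compared with a whole.

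The 4 activators, which open the core in place of the 19S particle, were lower in Rcor2cko as deposited (62.7% of all genes of at least 20 FPKM were), and 3 of 4 were lower once medians, upper quartiles or all quantiles were set equal. Their summed level was 162 FPKM in Rcor2fl/fl and 148 FPKM in Rcor2cko. Psme3, the nuclear activator PA28γ (chr11:101177565-101184844, plus strand), was at 48.0 FPKM in Rcor2fl/fl and 38.8 FPKM in Rcor2cko. Its change of -0.30 was the lowest of all members that passed, with a deposited interval from -0.56 to -0.05 and a fragment interval from -0.39 to -0.22. Psme4, the activator PA200, was at 28.2 and 26.9 FPKM, a change of -0.07 (fragment interval -0.14 to -0.01). Psme1 and Psme2, the interferon-inducible partners of PA28αβ, lie 2.19 kb apart on chromosome 14. Psme1 was at 47.1 and 44.1 FPKM, a change of -0.10 (fragment interval -0.24 to 0.05). Psme2 was at 38.8 and 38.7 FPKM, a change of -0.003 as deposited that ran from 0.02 to 0.04 under these scalings. It was 0.03 with the highest transcript row of Rcor2fl/fl set against the whole gene in Rcor2cko, a part against a whole. Psme1 and Psme2 were thus well above the 2.61 and 2.64 FPKM of Psmb10, the highest of the immunoproteasome subunits. Psmf1, known as the inhibitor PI31, was at 9.84 and 9.81 FPKM.

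Several transcripts were listed for 3 members, in Rcor2fl/fl alone. The longer Psmd10 transcript made up 86.9% of its gene's level, the longer Psme2 transcript 97.5%, and the shorter, coding Psmd2 transcript 99.6%.

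Near-identical copies of a coding sequence elsewhere in the genome, such as pseudogenes, can share reads with a member. Searching the coding sequence of all 44 members in the genome found 16 copies of at least 95% identity over at least 50% of its length, belonging to 10 members, and Psma3 and Psmb3 had 3 each. Levels of these 10 are therefore uncertain where the mapping could split or lend reads. Of the 10, 9 were lower in Rcor2cko, with a median change of -0.11, and of the 30 others that passed 18 were lower, with a median of -0.05. All 10 were above 20 FPKM in both libraries. Among all genes of at least 20 FPKM in both, 62.7% were lower, with a median of -0.04. A part of the copies in these changes was not tested.

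Genes that work with the proteasome but carry other names stayed in the same narrow range. Of the 5 assembly chaperones of the core, 3 were lower and 2 higher, with a summed level of 180 FPKM in each library. Pomp, which guides the assembly of the core, was at 106 and 108 FPKM, within the band of the core subunits. Psmg1, at 15.3 and 15.6 FPKM, Psmg2, at 18.5 and 16.7 FPKM, and the other two were lower than the core. Of 14 associated partners 10 were lower, 4 higher and none past 1.5-fold. Adrm1, the ubiquitin receptor Rpn13, was at 38.4 and 35.2 FPKM, a change of -0.13, and Ubqln4, a shuttle for ubiquitinated proteins, at 34.1 and 29.1 FPKM, a change of -0.23. Of the 6 genes for ubiquitin and its E1 enzymes 4 were lower, 2 higher and none past 1.5-fold. Beside all these counts, 57.6% of all genes tested were lower and 5.54% past 1.5-fold, shares that are not matched by level.

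The route by which cells raise proteasome transcripts when degradation is blocked runs through the transcription factor NFE2L1, which is extracted by VCP, cut by DDI2 and paired with small Maf proteins. Of 7 genes listed for this route, the related factor Nfe2l2 among them, 5 were lower and 2 higher in Rcor2cko. Among all genes tested 57.6% were lower and 5.54% past 1.5-fold. Nfe2l1 was at 22.4 and 21.4 FPKM, a change of -0.06. Ddi2 was at 9.88 FPKM (623 fragments) and 8.23 FPKM (700 fragments), a change of -0.26 with a deposited interval from -0.62 to 0.10. Vcp was at 140 and 127 FPKM, a change of -0.14. Maff passed 1.5-fold, at 1.35 FPKM and 41 fragments against 0.736 FPKM and 30 fragments, a change of -0.80 with a deposited interval from -1.59 to -0.01. Nfe2l2, the related factor of the oxidative stress response, was at 3.94 and 5.10 FPKM, a change of 0.36 (deposited interval -0.15 to 0.88). No fragment intervals are given for the genes of this route, so their intervals cannot be set beside the fragment intervals of members.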

How the data were processed

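RNA of the dissected tissue was made into libraries with a stranded mRNA kit, and each genotype had 1 library. The authors deposited FPKM values with lower and upper 95% bounds, per RefSeq transcript for Rcor2fl/fl (27641 rows) and per gene for Rcor2cko (21896 rows), on mm9. The submitters' processing notes name TopHat 1.3.3 and Cufflinks 1.2.0, while the methods name a later TopHat release and Cuffdiff; which run made the files is not given in the sources used here, nor is the use of strand or of multiply mapped reads.

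From these values, transcript rows were summed per gene and the half-widths of their bounds combined in quadrature. A pseudocount of 0.1 FPKM, a filter that kept genes reaching 1 FPKM in either library, and a fold of 1.5 were used, with no further scaling. The pseudocount understates changes of low genes. For single-transcript genes of 500 nt or longer, fragments were recovered as FPKM times the scaling total and the transcript length less an offset (194.1 and 200.9 nt), divided by a constant; 99.3% and 99.5% of values up to 100 fragments fell within 0.1 of a whole number, and all 41 single-transcript members did in both libraries. Recovered fragments were used for intervals and floors, which cover counting error only. A count model on 1 library per genotype has no residual degrees of freedom and was not run. Coding sequences were searched with blastn 2.17.0 in NCBIM37, the same assembly as mm9. Promoters are RefSeq's on GRCm38.p6, and the printed runs were placed in mm9 by exact match. Python 3.11.15, numpy 2.4.6, pandas 2.3.3, scipy 1.17.1 and matplotlib 3.10.9 were used, and the steps were tested on simulated data. The members, the gene lists and the motifs were chosen with earlier results of these data known. The rule for named genes took catalytic, immunoproteasome, activator, inhibitor, multi-transcript and unexpressed members, and the 3 highest and 3 lowest of each particle by level and by change; others were named after their values were seen. The values of some genes in the lists are not reported here. Alternatives covered the pseudocount, the scaling, the filter, the handling of transcript rows and the row status.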

Additional observations from a re-analysis of the deposited data

How the results depend on the processing

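Over 10 alternatives from the initial plan and 1 chosen after seeing the data (members without a genomic copy), and with the ratio of recovered fragments, 463 changes of single genes were recomputed. Of these, 14 changed sign, in 6 genes with changes near 0 (Psma2, Psmb10, Psmc2, Psmd6, Psme2 and Psmf1). Equal medians turned 3 of 40 values, equal upper quartiles 5 of 40, quantile normalization 5 of 40 and the highest row per gene 1 (Psme2). A pseudocount cannot turn a sign. The filters, the row status and the removal of members leave each remaining value as it was. The highest row can alter only the 3 members with several transcripts, and the fragment ratio restates the deposited FPKM. Most of the 463 values could therefore not change sign. The highest row was taken in Rcor2fl/fl alone and set against the whole gene in Rcor2cko. The median change of the members ran from -0.07 to -0.03 and the number lower from 18 of 30, without members that have a genomic copy, to 29 of 44, with no filter. Equal medians gave 24 of 40 lower, equal upper quartiles 22 and quantile normalization 23. With no filter, 2 members (Psmb8 and Psma8, at 6 and 1 and at 0 and 2 fragments) passed 1.5-fold in place of 0, and the median of the immunoproteasome members was -0.31 in place of 0.02, since Psmb8 and Psmb9 then entered. With a filter of at least 5 FPKM no immunoproteasome member was left, so no median could be given. Quantile normalization gave this median as -0.04 and equal upper quartiles as 0.06. The core median ran from -0.05 to 0.03, the higher value without members that have a genomic copy, and the 19S median from -0.08 to -0.03. The difference of the medians stayed positive, from 0.02 to 0.10. Equal medians and equal upper quartiles shift both medians alike, and neither the filters nor the row status removed a core or 19S gene. These alternatives could therefore not turn the sign of the difference. No paired analysis was possible because there was 1 library per genotype. For the same reason no library could be left out.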
